A study of Mus musculus with 4 samples.

Results

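The MHC class II pathway was followed through 10 genes, taken by gene symbol from the 24421 rows of an RNA-seq table of isolated mouse pancreatic islets. They are the chains H2-Aa, H2-Ab1 and H2-Eb1, the invariant chain Cd74, the transactivator Ciita, the peptide exchange and inhibitor chains H2-DMa, H2-DMb1 and H2-Oa, and the lysosomal enzymes Ifi30 and Ctss. All 10 symbols were present in the table. Islets are small endocrine organs within the pancreas, made mostly of beta cells. They came from wild-type C57BL/6 mice, recovered overnight and were kept in RPMI medium with 11 mM glucose. Islets of 2 libraries received the treatment called cytoEV daily for 48 h, and those of the other 2 are labelled untreated and are called control islets here. The series title names small extracellular vesicles, membrane-bound particles released by cells, of pro-inflammatory beta cells. The table names its control columns as if for a control EV, so whether these islets were given other vesicles is not settled here. The labels do not say how many animals each islet sample came from, and the p-values capture the spread of these samples, which may be technical.

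MHC class II molecules are pairs of an alpha and a beta chain that display peptides from endosomes to CD4+ T cells. Macrophages, dendritic cells and B cells carry them at rest, and interferon-gamma can induce them in other cells through IRF1 and the coactivator CIITA, among other factors. CIITA binds no DNA itself and acts on RFX, CREB and NF-Y factors, which sit on the X and Y boxes of class II promoters. The invariant chain blocks the groove and guides new molecules to endosomes, where cathepsin S trims it and H2-M, made of the H2-DMa and H2-DMb1 products, exchanges its last fragment for a peptide. C57BL/6 mice lack a working alpha chain for the class II molecule I-E, so their only classical class II molecule is I-A, made of the H2-Aa and H2-Ab1 products.

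X and Y boxes are known from the promoters of class II chain genes, and the stretches below show where the letters searched for occur. A promoter entry, reaching from 250 bases before to 50 after the start, was found for 7 of the 10 genes (RefSeq, GRCm38.p6). Each stretch runs 5′ to 3′ on the gene's strand, from 120 bases before the start to 5 after it, with matches in capitals. H2-Aa lies at chr17:34287819-34287943 on the minus strand. On the plus strand are H2-DMb1 at chr17:34153071-34153195, H2-Eb1 at chr17:34305747-34305871, H2-Oa at chr17:34092259-34092383 and Ctss at chr3:95526666-95526790.
H2-Aa: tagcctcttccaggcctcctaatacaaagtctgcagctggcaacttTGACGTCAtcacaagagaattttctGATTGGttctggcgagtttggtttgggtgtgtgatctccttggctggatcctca
H2-DMb1: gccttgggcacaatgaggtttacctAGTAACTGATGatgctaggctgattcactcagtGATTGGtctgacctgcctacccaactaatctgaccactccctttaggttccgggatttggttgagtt
H2-Eb1: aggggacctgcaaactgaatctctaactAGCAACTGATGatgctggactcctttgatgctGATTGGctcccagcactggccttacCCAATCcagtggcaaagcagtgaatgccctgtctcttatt
H2-Oa: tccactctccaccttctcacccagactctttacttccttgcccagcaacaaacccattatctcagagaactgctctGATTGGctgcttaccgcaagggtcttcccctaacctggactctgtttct
Ctss: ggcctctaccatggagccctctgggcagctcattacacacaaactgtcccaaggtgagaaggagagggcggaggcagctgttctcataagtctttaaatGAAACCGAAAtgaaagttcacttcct

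The Y box was searched as GATTGG and the X box as AGNNACNGATG, on both strands of the full entry. A Y box match started 49 bases before the start of H2-Aa, 62 before H2-DMb1, 60 before H2-Eb1 and 44 before H2-Oa. H2-Eb1 held another on the opposite strand and a second entry of H2-DMa held a match 199 bases before its start. Of all 32851 promoters, 16.1% held these 6 letters. X box matches started 95 bases before H2-DMb1, 92 before H2-Eb1 and 141 before H2-Oa, and 0.968% of all promoters held one. An X box followed by a Y box starting within 60 bases, both on the gene's strand, occurred in 4 promoters of the whole set. These were H2-DMb1, H2-Eb1, the class II gene H2-Eb2 and Scgb2b20, so H2-DMb1, called below, shared this layout with H2-Eb2, which had no read in any library. H2-Aa held no match to the X box letters, but had the CREB-type core TGACGTCA 74 bases before its start, found in 1.79% of promoters. The interferon-type motif GAAANNGAAA occurred in the Ctss entry only, 21 bases before its start, and in 3.44% of all promoters. The motif TTCNNNGAA, a form of the interferon-gamma activated site, was in none of the entries of these genes and in 8.3% of all promoters. The Ifi30 entry and the first of the 2 H2-DMa entries held no match. These matches describe letters and are not measured binding.

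In cytoEV islets, most of the tested class II genes were not called, and differences between their changes were not tested. H2-Aa and H2-DMb1 were called higher at an adjusted p under 0.05, at 1.37 and 1.79 times the mean CPM of control islets (CPM count reads per 1000000 reads of a library). H2-Eb1 stood at a similar ratio, 1.35, without passing, and Cd74, Ifi30 and Ctss lay within a few percent of control. Ciita, at under 1 CPM in every library, averaged 2.28 times its control level and was too low for the main test. The test was limma on log2(CPM + 1), with Benjamini-Hochberg adjustment over the 12780 genes that reached 1 CPM in 2 or more libraries. Of the 10 genes 8 were tested, 2 were called higher and 0 lower. Over all tested genes 3.16% were called higher and 3.51% lower. By limma, 3 of the 8 were higher and 0 lower at an unadjusted p under 0.05. The share of all tested genes at that unadjusted threshold was not counted. On the whole reads recovered from the CPM values, edgeR called 0 of the 8 and DESeq2 2, against backgrounds of 2.52% and 5.83% called higher. Neither called any of the 8 lower, where edgeR called 402 and DESeq2 845 of the 12780 tested genes lower. The median log2 change of the 8 genes was 0.21, and that of all tested genes 0.01. The values of the cytoEV libraries lay above both control libraries in 4 of the 8 and below both in 1, where 27.8% and 26.1% of all tested genes did so.

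**Figure D1:**
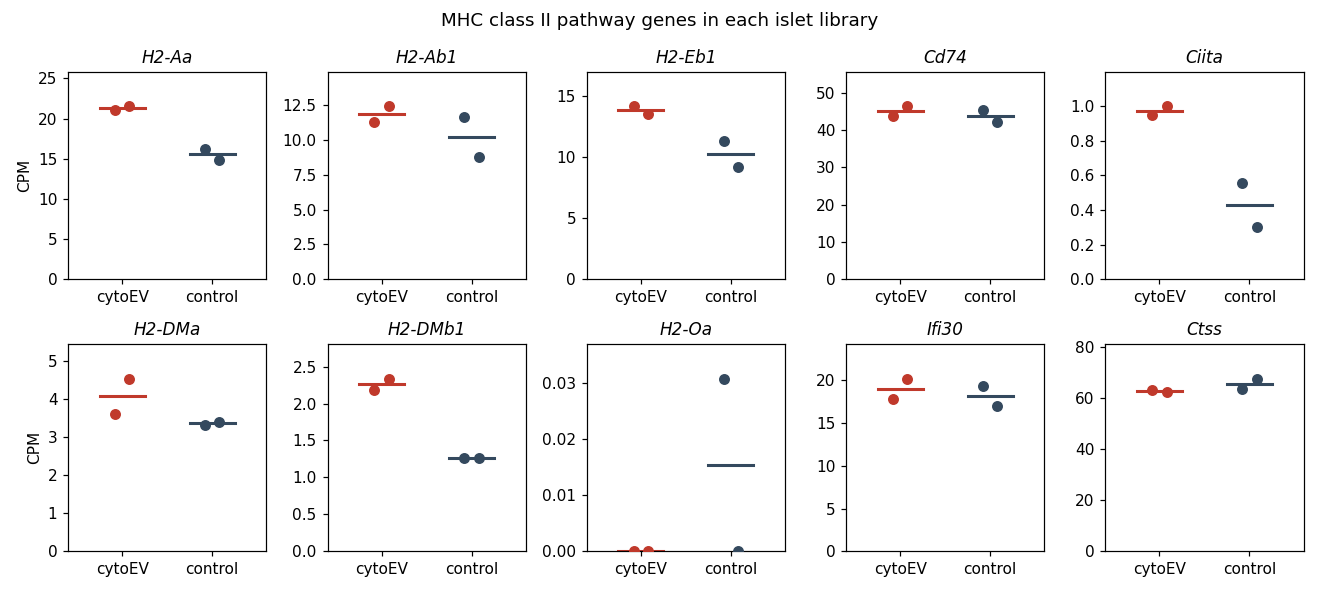
CPM of the 10 MHC class II pathway genes in each library (points) with the group mean (line), cytoEV left and control right, each panel with its own axis from 0. H2-Aa, H2-Eb1, H2-DMa, H2-DMb1 and Ciita lie higher in both cytoEV libraries than in both control libraries, while H2-Ab1, Cd74 and Ifi30 overlap. Of all tested genes, which leave out Ciita, 27.8% lay higher in this way.

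Library depth was 137964050 and 136134548 reads in the cytoEV libraries and 129726756 and 156183968 in the control libraries. At this depth 3 reads, the limit used for a count of 0, correspond to between 0.0192 and 0.0231 CPM, and this limit covers counting error only. Insulin marked the tissue: Ins1 and Ins2 averaged 57266 and 144004 CPM in cytoEV islets, and 54999 and 135487 CPM in control islets. Since these are bulk samples, more cells of a type and more RNA per cell cannot be told apart.

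H2-Aa encodes the alpha chain of I-A and sits on the minus strand of chromosome 17, 34282744 to 34287823 in GRCm38. It had 21.1 and 21.5 CPM in the cytoEV libraries, against 16.2 and 14.9 CPM in the control libraries. Both cytoEV values exceeded both control values, and the gap between the groups was wider than the spread inside either. The log2 change was 0.43 ± 0.10 (SE) with a 95% interval of 0.19 to 0.67 (limma adjusted p = 0.0465). This call stood close to the threshold: the adjusted p was 0.0596 after rescaling by TMM composition factors, 0.0515 in edgeR, 0.439 without cytoEV replicate 1 and 0.457 without cytoEV replicate 2. In DESeq2 it was 0.00716.

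Its partner H2-Ab1, the beta chain of I-A (chromosome 17, 34257689 to 34269419, plus strand), had 11.3 and 12.4 CPM in cytoEV islets and 11.6 and 8.77 CPM in control islets. The groups overlapped, because control replicate 1 exceeded cytoEV replicate 1. The log2 change was 0.21 ± 0.14 (SE), with a 95% interval of −0.12 to 0.54 (limma adjusted p = 0.423). Single control libraries decided the size: without control replicate 1 the change was 0.40 and passed (adjusted p = 0.0234), and without control replicate 2 it was 0.024. Without control replicate 1 far more genes passed in all, 1047 higher and 1389 lower, against 404 and 449 with all 4 libraries. The CPM ratio of H2-Aa to H2-Ab1 was 1.86 and 1.73 in cytoEV libraries and 1.39 and 1.70 in control libraries, so the ratio was lowest in control replicate 1.

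H2-Eb1 encodes the beta chain of I-E, which in this strain has no alpha partner (chromosome 17, 34305867 to 34316674, plus strand). It had 14.1 and 13.5 CPM in cytoEV islets and 11.3 and 9.18 CPM in control islets, with no overlap. The log2 change, 0.41 ± 0.13 (SE), nearly equalled that of H2-Aa, but the wider control spread left it short of the threshold (limma adjusted p = 0.0948). In the same fit without control replicate 1, with its larger number of calls over all genes, it passed at 0.54 (adjusted p = 0.00299). Reads of the alpha chain pseudogene H2-Ea-ps numbered 0 in all 4 libraries, while H2-Eb1 gave between 1433 and 1950 reads.

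Cd74, the invariant chain (chromosome 18, 60803848 to 60812652, plus strand), was not called. It had 43.8 and 46.4 CPM in cytoEV islets and 45.5 and 42.1 CPM in control islets. The 2 groups were interleaved, and the log2 change was 0.04 ± 0.10 (SE) with a 95% interval of −0.18 to 0.26 (limma adjusted p = 0.844). The CPM ratio of Cd74 to H2-Aa was therefore 2.08 and 2.16 in cytoEV libraries, below the 2.81 and 2.83 of control libraries. That ratio was the same to within a few percent in libraries of 1 group and separated the groups. Whether Cd74 and the chain genes changed differently was not tested.

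Ciita, on chromosome 16 from 10480059 to 10528418, encodes the coactivator that sets class II transcription. It had 131 and 136 reads (0.950 and 0.999 CPM) in the cytoEV libraries, against 72 and 47 reads (0.555 and 0.301 CPM) in the control libraries. Both cytoEV libraries held more than both control libraries, but the spread was wider between the control libraries. Under the 1 CPM filter in every library, Ciita had no main test. With no filter on low values the log2(CPM + 1) change was 0.47 (limma adjusted p = 0.112, unadjusted p = 0.0062). In edgeR on every gene with at least 10 reads in 2 libraries, a choice made after the data were seen, its log2 change was 1.18 (adjusted p = 0.143). Of its exon bases, 3.45% also lie in exons of other genes, mostly of Dexi.

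The peptide exchange chains were expressed at a low level. H2-DMb1 (chromosome 17, 34153072 to 34160230, plus strand) had 2.18 and 2.34 CPM in cytoEV islets and 1.26 CPM in each control library. This was the widest ratio among the 8 tested genes, resting on 301 and 318 reads in the cytoEV libraries and 164 and 197 in the control libraries. The log2 change was 0.53 ± 0.12 (SE, 95% interval 0.24 to 0.81, limma adjusted p = 0.0416). It was 0.83 in edgeR, where it did not pass (adjusted p = 0.0539), and 0.83 in DESeq2, where it did (adjusted p = 0.0321). The limma call was lost with TMM rescaling (adjusted p = 0.0501). In limma the change was 0.56 without cytoEV replicate 1 and 0.49 without cytoEV replicate 2. Of its 50-base stretches, 22.7% also occur in transcripts of the neighbouring copy H2-DMb2, which had 17 reads in cytoEV replicate 2 and 0 in the other libraries.

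H2-DMa, the alpha partner (chromosome 17, 34119541 to 34139101, plus strand), had 3.62 and 4.55 CPM in cytoEV islets and 3.33 and 3.41 CPM in control islets. The groups did not overlap, but cytoEV replicate 1 lay nearer to the control libraries than to cytoEV replicate 2. Its log2 change was 0.21 ± 0.13 (SE, limma adjusted p = 0.384). Of its annotated exon bases 10.4% lie in exons of other genes, mostly Brd2, so its separate value is uncertain. H2-Oa, which encodes a chain of the H2-M inhibitor H2-O, had 0 reads in both cytoEV libraries, against 4 and 0 in the control libraries. Its partner H2-Ob had 0 reads in both cytoEV libraries and 0 and 6 in the control libraries. H2-O is known from B cells, and its transcripts were at or near the counting floor here.

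Neither of the 2 lysosomal enzymes was called. Ctss, the cathepsin that trims the invariant chain (chromosome 3, 95526786 to 95556403, plus strand), had 63.2 and 62.4 CPM in cytoEV islets and 63.5 and 67.7 CPM in control islets. Its cytoEV values lay just below both control values, and the log2 change of −0.06 ± 0.09 (SE, 95% interval −0.26 to 0.14) did not pass (limma adjusted p = 0.732). Ifi30, a thiol reductase that opens disulfide bonds of antigens (chromosome 8, 70762774 to 70766663, minus strand), had 17.8 and 20.2 CPM in cytoEV islets and 19.3 and 16.9 CPM in control islets. The groups overlapped (log2 change 0.06 ± 0.12 SE, limma adjusted p = 0.793). The intervals reach down to −0.26 for Ctss and up to 0.26 for Cd74, so they do not show equal levels.

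Levels were compared between genes per kilobase of the longest coding transcript, or of the longest transcript for Ifi30, which GENCODE M21 lists without a coding one. In cytoEV libraries the order was Ctss at 46.4 ± 0.41, Cd74 at 32.0 ± 1.3, Ifi30 at 19.4 ± 1.7, H2-Aa at 18.9 ± 0.28, H2-Ab1 at 9.80 ± 0.64, H2-Eb1 at 8.29 ± 0.26, H2-DMa at 2.04 ± 0.33, H2-DMb1 at 1.61 ± 0.078 and Ciita at 0.162 ± 0.0058 CPM per kb (SD, n = 2). Ifi30 and H2-Aa were not separated there, as the H2-Aa libraries fell inside the Ifi30 range. Control libraries kept this order, with Ctss at 48.4 ± 2.2 and Ciita at 0.0713 ± 0.030 CPM per kb (SD, n = 2), and there Ifi30 lay above H2-Aa in both libraries. The places of the chains depend on the transcript models: over all annotated exons, which for H2-Aa include a long retained intron, H2-Eb1 came before H2-Aa and H2-Ab1, and H2-DMb1 before H2-DMa, in cytoEV libraries.

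**Figure D2:**
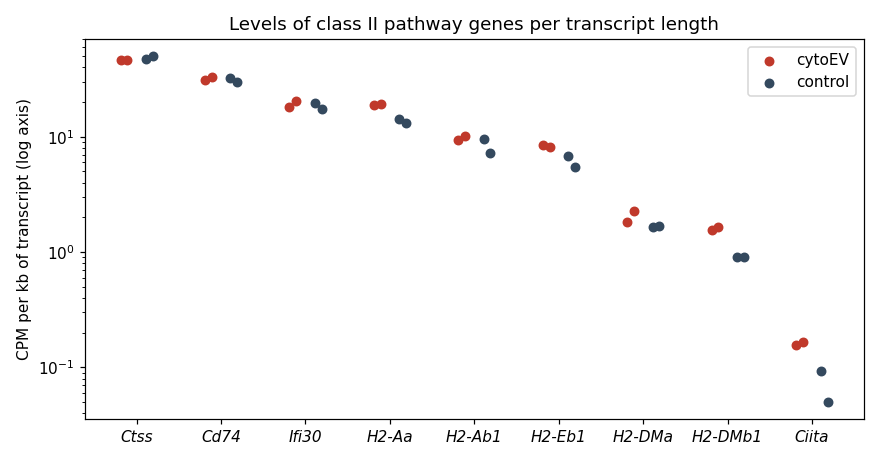
Level per kilobase of transcript (log axis) of 9 class II pathway genes in each library, cytoEV left of control, ordered by the cytoEV mean. H2-Oa is left out, since 3 of its 4 libraries were at 0. Ctss and Cd74 lie highest and Ciita lowest, and the group gap is visible for H2-Aa, H2-DMb1 and Ciita but not for Cd74 or Ifi30.

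Of the genes reported from the route from interferon-gamma to Ciita, 2 of 6 tested rose and 0 fell in limma. Of all tested genes 3.16% were called higher and 3.51% lower. Irf1, which encodes a factor that binds the interferon-inducible Ciita promoter, had 117.9 and 117.3 CPM in cytoEV islets against 63.1 and 69.9 CPM in control islets (log2 change 0.81 ± 0.09 SE, limma adjusted p = 0.00114). Both cytoEV values stood clear of both control values. The receptor chain gene Ifngr2 had 13.0 and 12.1 CPM in cytoEV islets against 8.06 and 8.96 CPM in control islets (0.51 ± 0.12 SE, limma adjusted p = 0.0347). That call did not hold with no filter (0.117) and without cytoEV replicate 1 (0.392) or 2 (0.165). The other receptor chain gene, Ifngr1, had a log2 change of −0.22 and did not pass (adjusted p = 0.241), and neither did Jak1, Jak2 or Usf1. Socs1, a feedback inhibitor, was below the filter, with 30 and 29 reads in cytoEV libraries and 35 and 16 in control libraries.

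The factors that occupy class II promoters and the other endosomal enzymes gave no call by limma. Of 7 enhanceosome genes, coding for RFX and NF-Y subunits and CREB1, the nearest was the RFX subunit gene Rfx5, with 41.1 and 41.6 CPM in cytoEV islets and 31.6 and 33.3 CPM in control islets (log2 change 0.34, limma adjusted p = 0.0685). Of 8 genes of endosomal proteolysis the nearest was Ctsb, cathepsin B, with 611 and 606 CPM in cytoEV islets and 721 and 753 CPM in control islets (−0.28, limma adjusted p = 0.0721). Rfx5 and Ctsb were singled out after their values were seen. DESeq2 called Rfx5 higher (adjusted p = 0.0167) and Ctsb lower (adjusted p = 0.0164), and edgeR called neither. Over the whole list of other pathway genes, 22 were tested, and limma called 2 higher and 0 lower. At an unadjusted p under 0.05, 4 were higher and 2 lower. The share of all tested genes at that unadjusted threshold was not counted, so no excess can be read from this. At the adjusted threshold limma called 3.16% of all tested genes higher and 3.51% lower. From the list edgeR also called 2 and 0, and DESeq2 3 and 1. Those tools called 2.52% and 5.83% of all tested genes higher, and 402 and 845 of the 12780 tested genes lower. The list's median log2 change was 0.02. H2-Eb2 had 0 reads in all 4 libraries, and 5 listed symbols that matched no row, H2-Ea and older and newer names of 2 MARCH ligases, were not analysed here.

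**Figure D3:**
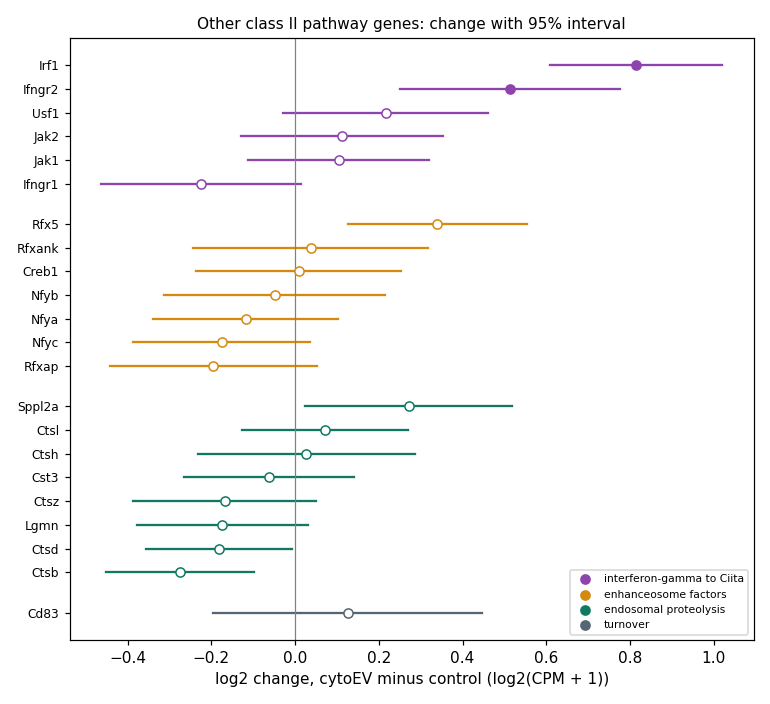
Log2 change of log2(CPM + 1), cytoEV minus control, with limma's 95% interval, for 22 other class II pathway genes in 4 groups. Filled points are called at an adjusted p under 0.05: Irf1 at 0.81 and Ifngr2 at 0.51, while the other points are open and lie between −0.28 and 0.34.

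Class I presentation, which shows peptides from the cell's own interior to CD8+ T cells, gives the nearest comparison. All 10 class I genes measured here were called higher by limma and DESeq2 and 8 by edgeR, with a median log2 change of 1.27. Of all tested genes limma called 3.16% higher, DESeq2 5.83% and edgeR 2.52%. Nlrc5, the class I counterpart of Ciita, had 15.6 and 15.3 CPM in cytoEV islets and 2.27 CPM in each control library. Ciita minus Nlrc5, on the log2(CPM + 1) scale within a library, was −3.09 and −3.02 in cytoEV libraries against −1.07 and −1.33 in control libraries. The difference was −1.86, and the exact two-sided permutation test gave p = 0.33, the smallest p that 2 against 2 libraries allow. That size was −1.35 with a pseudocount of 5. B2m, the class I light chain, averaged 298.2 ± 10.5 CPM in cytoEV islets and 62.1 ± 5.5 CPM in control islets (SD, n = 2 each). H2-Aa minus B2m was −3.80 and −3.70 in cytoEV libraries against −1.78 and −2.08 in control libraries, a difference of −1.82 (exact permutation p = 0.33). In both pairs the groups did not overlap. H2-K1, a class I heavy chain, Tap1, a peptide transporter, and Psmb8, an immunoproteasome subunit, had log2(CPM + 1) changes of 0.96, 2.35 and 1.55. On that scale B2m had 2.25 and another heavy chain, H2-D1, 0.82, so the H2-Aa contrast depends on the class I gene taken. The highest value among the tested class II genes on that scale was 0.53. In edgeR the sets overlapped, as H2-DMb1 at 0.83 lay above the class I genes Tapbp (0.61), H2-D1 (0.81) and Tap2 (0.81). The rest of the class I genes lay above H2-DMb1 there.

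**Figure D4:**
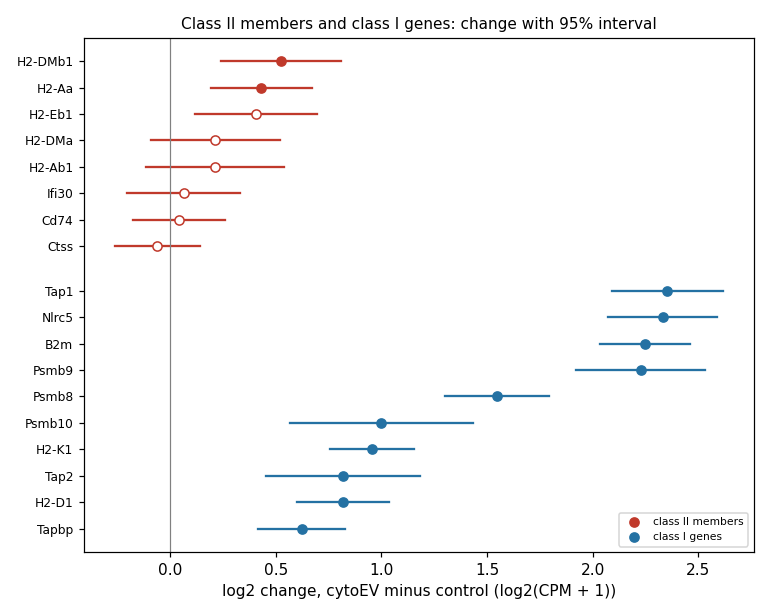
Log2 change of log2(CPM + 1), cytoEV minus control, with limma's 95% interval, for the 8 tested class II genes and 10 class I genes. Filled points are called at an adjusted p under 0.05. On this scale the class II points lie between −0.06 and 0.53 and the class I points between 0.62 and 2.35. In edgeR the 2 sets overlapped.

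Cells that carry class II at rest were read from their markers. Of 18 macrophage markers limma called 1 higher and 1 lower, against 3.16% and 3.51% of all tested genes. EdgeR also called 1 and 1 of the 18, and DESeq2 3 and 1. Over all 12780 tested genes those 2 tools called 2.52% and 5.83% higher, and 402 and 845 genes lower. In 10 of the 18 both cytoEV values lay above both control values and in 4 below both. Of all tested genes 27.8% and 26.1% did so. The summed level of the 18 was 384.9 to 398.7 CPM in cytoEV islets and 384.1 to 390.0 CPM in control islets. The largest part of that sum was Lyz2, lysozyme, averaging 142.1 CPM in cytoEV islets and 165.7 CPM in control islets. Its log2 change was −0.22 (limma adjusted p = 0.19). Next came the complement gene C1qa with a log2 change of 0.44 (limma adjusted p = 0.0733), close to the 0.43 of H2-Aa. DESeq2 called C1qa higher (adjusted p = 0.0177) and edgeR did not (adjusted p = 0.131). By limma Cx3cr1 was called higher (0.75, adjusted p = 0.00714) and Cd14 lower (−0.62, adjusted p = 0.0205). The pan-leukocyte gene Ptprc had 8.76 and 8.87 CPM in cytoEV islets against 6.95 and 7.86 CPM in control islets, and the CPM ratio of H2-Aa to Ptprc was 2.41 and 2.42 in cytoEV libraries against 2.33 and 1.89 in control libraries. Itgax, which encodes CD11c of dendritic cells and islet macrophages, had 15.59 and 14.99 CPM in cytoEV islets and 11.8 and 12.2 CPM in control islets. Relative to Itgax, H2-Aa stood at 1.35 and 1.44 in cytoEV libraries and 1.37 and 1.22 in control libraries, so these ratios overlapped. Relative to the macrophage gene Adgre1 it stood at 1.644 and 1.706 in cytoEV libraries and 1.495 and 1.443 in control libraries. The ratios of H2-Aa to Adgre1 and to Ptprc did not overlap between the groups. The part of leukocyte markers in the class II values was not tested.

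Defining markers of other class II cells were scarce. Of 8 dendritic cell markers only Itgax was tested, Xcr1 and Cd209a had 0 reads in every library, and the summed list was 15.3 to 16.2 CPM in cytoEV islets and 12.2 to 12.5 CPM in control islets. Zbtb46 averaged under 1 CPM in both groups. Clec9a had 10 and 13 reads in cytoEV libraries and 0 in both control libraries. Of 5 B cell markers, Ms4a1 and Cd79b had 0 reads in all 4 libraries, and Cd22 averaged 0.609 CPM in cytoEV islets and 0.598 CPM in control islets. Cd79a, in contrast, had 5.55 and 6.06 CPM in cytoEV islets and 3.52 and 3.03 CPM in control islets (log2 change 0.67, limma adjusted p = 0.0164). The summed B cell list, 6.17 to 6.66 CPM in cytoEV islets and 3.73 to 4.08 CPM in control islets, was nearly all Cd79a. Of 6 T cell markers 3 had 0 reads in every library, and the summed level was 1.022 to 1.197 CPM in cytoEV islets and 1.27 to 1.38 CPM in control islets, most of it from Lck and less from Cd4. Endothelial cells can also carry class II, and 3 of 6 markers were called lower and 0 higher by limma. At an unadjusted p under 0.05, for which the share of all tested genes was not counted, limma also gave 0 higher. Over all tested genes limma called 3.51% lower and 3.16% higher. EdgeR called 2 of the 6 lower and DESeq2 4, and both called 0 of them higher. Over all 12780 tested genes edgeR called 402 lower and DESeq2 845. Pecam1 and Cdh5 had log2 changes of −0.51 each, and the list summed to 30.8 to 31.6 CPM in cytoEV islets and 42.8 to 45.1 CPM in control islets.

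**Figure D5:**
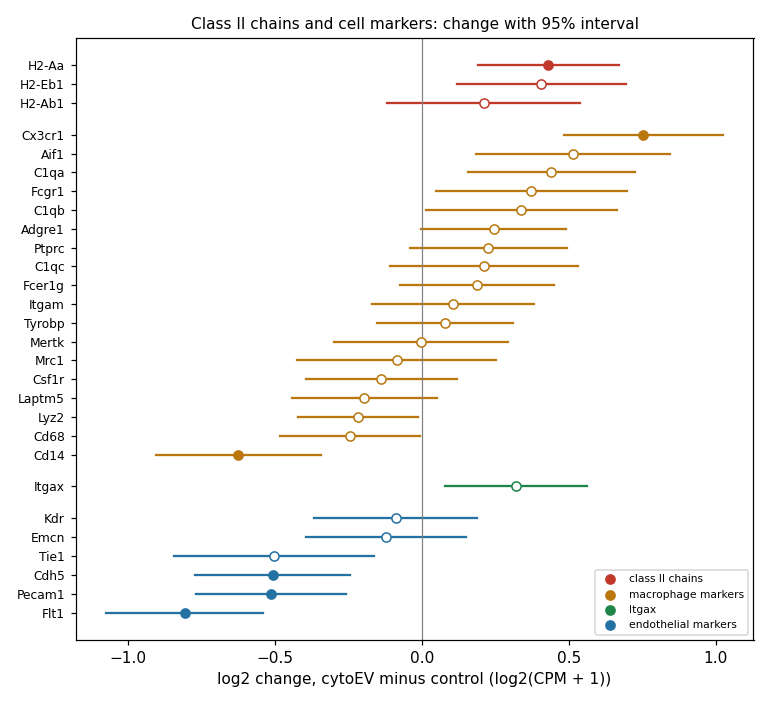
Log2 change of log2(CPM + 1), cytoEV minus control, with limma's 95% interval, for the 3 class II chain genes, 18 macrophage markers, Itgax and 6 endothelial markers. Filled points are called at an adjusted p under 0.05. H2-Aa at 0.43 lies among the macrophage markers, which reach from −0.62 for Cd14 to 0.75 for Cx3cr1, and the endothelial points all lie below 0.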

How the data were processed

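The authors deposited CPM values, 1 column for each library and 1 row for each gene symbol, and every column adds up to 1000000. Per the labels' protocols, libraries came from a stranded mRNA kit. The strand setting of the counting was not given in the sources used here. Tools named without a role, per the submitters' processing notes, are edgeR 3.1.1, R 3.6.1, StringTie 2.1.3 and TopHat2 2.0.6, and the build is mm10. Columns were assigned to samples by group name and replicate number, and for the control columns this rests on names only. Dividing by the smallest step of each library gave whole reads for 100% of the values above 0, with a tolerance of 0.01 read.

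Genes that reached 1 CPM in 2 or more libraries were tested with limma 3.58.1 (R 4.3.3) on log2(CPM + 1), with a trend in eBayes and group as the only term, leaving 2 residual degrees of freedom. This scale understates changes of low genes. Calls used an adjusted p under 0.05. The recovered reads were tested with DESeq2 1.42.0 and with the quasi-likelihood test of edgeR 4.0.16 after TMM scaling. Other pseudocounts, filters, scalings, variance settings, a replicate block and each library left out were also tried. Named genes were all 10 pathway genes, called genes of the pathway list, Nlrc5, B2m, H2-K1, Tap1 and Psmb8, and the 2 highest of each marker list. Others were chosen after their values were seen. The genes and lists were chosen with earlier results of these data known. Coordinates, exons, transcript lengths and shared 50-base stretches came from GENCODE M21 (GRCm38, also called mm10), with Python 3.11.15 and pandas 2.3.3. Some genes that the lists and the named-gene rule covered are not reported here.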

Additional observations from a re-analysis of the deposited data

How the results depend on the processing

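A filter of 5 CPM removed H2-DMb1 from testing and left H2-Aa uncalled (limma adjusted p = 0.053). The 2 class II genes called higher became 0 there and with no filter, TMM rescaling, quantile normalization, median centring and both edgeR fits. With the replicate block 1 was called. Leaving out a library gave between 0 and 4, the 4 without control replicate 1. Over all tested genes the same fits called between 215 and 2408 higher and between 249 and 2023 lower, so the shares called with all libraries do not apply to them. With a library left out, the spread came from the other group's pair alone. None was called lower under any of these. The H2-DMb1 log2 change ran from 0.21 with a pseudocount of 5 to 0.83 in the edgeR fits. Without single libraries, Cd74 ranged from −0.013 to 0.094 and Ifi30 from −0.026 to 0.15, turning sign without cytoEV replicate 2 (−0.000139 and −0.023) and control replicate 2 (−0.0134 and −0.0258). For other pathway genes, 2 higher became between 1 and 6, and 0 lower between 0 and 3, without single libraries. With no filter 1 was higher. Quantile normalization, median centring and DESeq2 each gave 1 lower. Ciita minus Nlrc5 was −1.65 and −1.35 with pseudocounts of 0.1 and 5. Apart from the removal of H2-DMb1 by the 5 CPM filter, the cause of these shifts was not tested. Replicate numbers are shared by the groups, but no label says they pair samples, and deviations of same-numbered libraries correlated at −0.22 across genes. The replicate block kept the H2-DMb1 call (adjusted p = 0.0129), not that of H2-Aa (0.0875), and left 2 higher and 0 lower among the other pathway genes. Depth limits H2-Oa and H2-Ob, whose counts were near 3 reads.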
